A study of Mus musculus with 6 samples.

Results

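Endothelial cells that carried Plvap transcripts were picked out of 6 single-cell RNA libraries of young mice and compared with endothelial cells in which no Plvap transcript was captured. A cell barcode was kept if it had 500 genes or more and mitochondrial transcripts made up no more than 10%. It was called endothelial with a transcript of at least 3 of Pecam1, Cldn5, Cdh5, Flt1, Esam and Egfl7, and called Plvap-positive with at least 2 unique molecular identifiers (UMIs, the count of captured transcripts) of Plvap. The cells were thus chosen by their Plvap counts. Of 14165 endothelial cells, 205 were Plvap-positive (1.45%), 295 had a single Plvap UMI and 13665 had none. Plvap (ENSMUSG00000034845) lies on the minus strand at chr8:71497765-71511752 (GRCm38). Because Plvap counts chose the cells, Plvap and the 6 endothelial genes of the gate are described and were not tested.

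All mice carried Mfsd2a-CreERT2, a tamoxifen-dependent Cre recombinase driven from the locus of a lipid transporter of barrier endothelium. The wild-type libraries (WT) came from mice with this Cre and no floxed allele, and the knockout libraries (KO) from Mfsd2a-CreERT2:Pdcd10fl/fl mice, in which both copies of the cerebral cavernous malformation gene Pdcd10 (Ccm3) are floxed. These mice received tamoxifen on postnatal day 1 (P1), and cells were taken at P6 or P10. A further pair of KO libraries was harvested at P9 after tamoxifen with vehicle or with rapamycin, which inhibits the growth kinase mTORC1, and the labels used here give no tamoxifen day for it. Each of the 6 groups was 1 library of sorted cells, and the labels do not say how many animals each held. The Cre acts in cells that use the Mfsd2a locus, and which of the Plvap-positive cells had recombined was not measured. Pdcd10 itself was measured at 69.8 CPM in KO at P6, 72.9 in KO at P10, 39.0 with vehicle and 95.9 with rapamycin in the Plvap-positive cells, against 58.4, 57.7, 45.2 and 79.6 CPM in the Plvap-zero cells of the same libraries, where CPM is UMIs per 1000000 UMIs summed over the cells of a class. The WT Plvap-positive cells had 126 CPM at P6 and 137 CPM at P10 from 10 cells in all. Their sums over all genes held 39752 and 21867 UMIs, so both values rest on few Pdcd10 UMIs. A difference in Pdcd10 between WT and KO was not tested. Whether the Pdcd10 UMIs fall in the floxed part of the transcript is not given in the sources used here.

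Plvap encodes the protein that forms the diaphragms of endothelial fenestrae, caveolae and transendothelial channels. Endothelium of fenestrated beds, such as the choroid plexus stroma, the pituitary and the circumventricular organs, carries it throughout life, whereas brain capillaries lose it as Wnt signalling from the surrounding tissue installs the blood-brain barrier with its transporters and tight junctions. Plvap also returns in barrier endothelium that has become leaky, and it is found in some venous endothelium, so the transcript alone does not say which of these vessels a cell came from. The tissue label reads retina, while brain is named in the title and design.

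Plvap-positive cells were a small class in every library. Their share was higher in all 4 KO libraries than in either WT library. For vehicle this did not hold after thinning to equal depth, where its share rested on 2 cells. They numbered 6 of 1380 endothelial cells in WT and 29 of 857 in KO at P6, a share of 0.435% (exact 95% interval 0.160 to 0.944) against 3.38% (2.28 to 4.82). At P10 they numbered 4 of 3540 in WT and 74 of 3017 in KO, or 0.113% (0.0308 to 0.289) against 2.45% (1.93 to 3.07). At P9 they numbered 22 of 3768 with vehicle and 70 of 1603 with rapamycin, or 0.584% (0.366 to 0.883) against 4.37% (3.42 to 5.49). The vehicle share lay near that of WT at P6, and the rapamycin share was the highest of the 6. These intervals cover counting error only, and with 1 library per group no share was tested.

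Depth per cell differed between libraries and bears on a count of at least 2 UMIs. The median UMIs of Plvap-zero cells spanned 4870 (WT at P10) to 11620 (rapamycin). Endothelial cells with at least 2000 UMIs were thinned to 2000 UMIs, and those with fewer were left out. This left out 4 Plvap-positive cells in KO at P6, 9 in KO at P10 and 1 with rapamycin. The shares were then 0.225% and 1.45% in WT and KO at P6 and 0.0632% and 1.69% at P10. They were 0.0570% and 2.69% with vehicle and rapamycin. The order of each pair was the same after thinning, and the vehicle share then lay below both WT shares. Among 869 kept barcodes with a transcript of at most 1 of the 6 gate genes, called non-endothelial here, 3 had 2 or more Plvap UMIs, 2 of 44 in KO at P10 and 1 of 157 with rapamycin. These barcodes served as the check for free Plvap RNA. Their share in KO at P10 was 4.55% (exact upper limit 15.5%), so the check does not place free RNA below the 2.45% of endothelial cells there. Their median depth was 883 UMIs with vehicle and 849 with rapamycin, against 7978 and 11620 in Plvap-zero cells, and 2237.5 against 6401 in KO at P10. The other 4 libraries held 0 barcodes with 2 or more Plvap UMIs among 83 (WT P6), 77 (KO P6), 30 (WT P10) and 478 (vehicle).

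**Figure D1:**
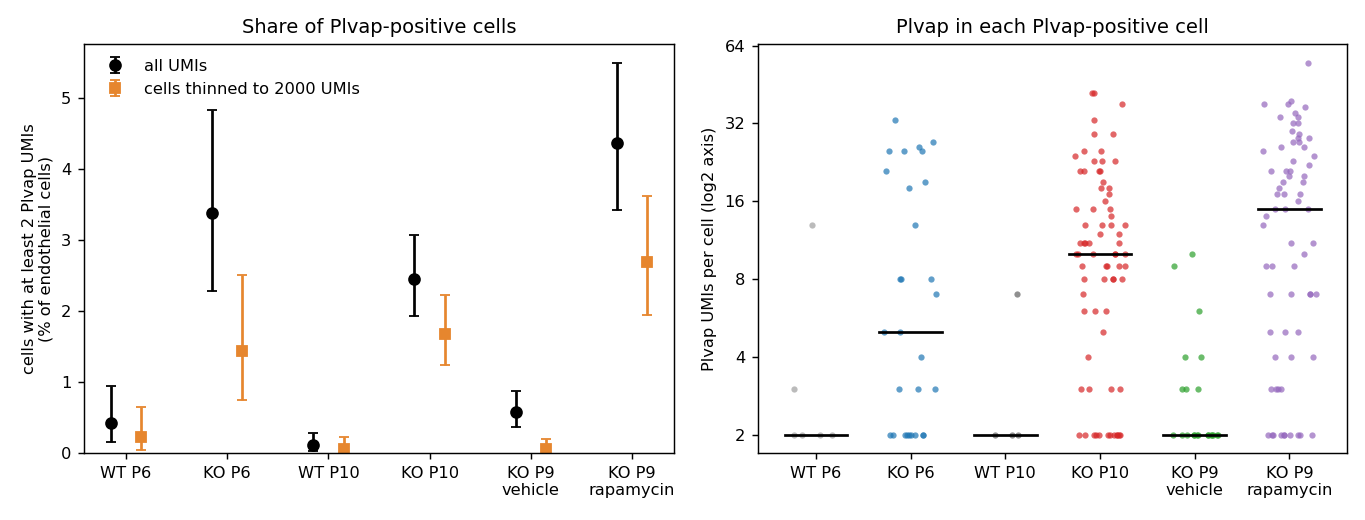
Left, the percent of endothelial cells with at least 2 Plvap UMIs in each library (circles), with exact 95% intervals. Squares give it after thinning to 2000 UMIs, with cells of fewer UMIs left out. Right, the Plvap UMIs of each Plvap-positive cell on a log2 axis, 1 point per cell with the median as a line. KO at P10 and rapamycin hold most cells above 6 UMIs, whereas 19 of the 22 vehicle cells lie between 2 and 5.

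The libraries also differed in how much Plvap a positive cell carried. The median was 2 UMIs in WT at P6, WT at P10 and vehicle, 5 in KO at P6, 10 in KO at P10 and 15 with rapamycin, and the highest cell of each library had 13, 7, 10, 33, 42 and 55 UMIs in the same order. Cells with 6 or more Plvap UMIs made up 48.3% of the Plvap-positive cells in KO at P6 (14 of 29), 75.7% in KO at P10 (56 of 74), 71.4% with rapamycin (50 of 70) and 13.6% with vehicle (3 of 22). Each WT library held 1 such cell. Over all libraries, 52 of the 205 cells sat at the threshold of exactly 2 UMIs, next to the 295 cells just below it with 1 UMI. Cells with 6 or more Plvap UMIs had fewer UMIs in total than cells with 2 to 5 in the 3 libraries with the most of them. The median total was 14812 UMIs in cells with 2 to 5 Plvap UMIs and 6575.5 in cells with 6 or more in KO at P6, 7823.5 and 3509 in KO at P10, and 12469 and 9444.5 with rapamycin.

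Plvap-positive cells were compared with Plvap-zero cells within the 4 KO libraries, which held at least 20 of them each. UMIs were summed per class and library and tested with edgeR's quasi-likelihood method with the library as a block, so that the spread is that of the class difference over 4 libraries. Of 11371 genes tested, 502 were higher in Plvap-positive cells (4.41%) and 355 were lower (3.12%) at a Benjamini-Hochberg adjusted p under 0.05. Of the tested genes, 15 of 17 of fenestrated endothelium, 9 of 23 interferon-stimulated, 5 of 15 vein and 5 of 14 artery genes were higher. Lower were 17 of 25 genes of barrier transport, 11 of 21 of Wnt and barrier signalling and 8 of 11 of capillary identity. The gene lists were chosen with earlier results of these data known, so the list values are given as description. Over all genes tested, the counts of higher and lower genes were 58 and 8 when the library was not a term of the fit. They were 164 and 105 without both P9 libraries. They were 285 and 175 without KO at P10, 193 and 137 without rapamycin, 733 and 599 without KO at P6, and 457 and 278 without vehicle.

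The largest rise among the genes named by rule was in Cd300lg, a surface glycoprotein of endothelium. It measured 58.6 CPM in KO at P6, 250.2 in KO at P10, 8.67 with vehicle and 84.0 with rapamycin in Plvap-positive cells, and no more than 1.47 CPM in the Plvap-zero cells of any of these libraries. With vehicle it was captured in 1 of 22 Plvap-positive cells. The log2 difference was 6.35 (SE 0.43, adjusted p = 3.12e-06). Lrg1, a secreted glycoprotein that modulates TGF-beta signalling in endothelium, measured 30.7 CPM in KO at P6, 48.6 in KO at P10, 43.4 with vehicle and 135 with rapamycin against 0.226, 1.70, 1.35 and 0.478 CPM, a log2 difference of 6.06 (SE 0.53, adjusted p = 1.58e-05). The imprinted noncoding RNA H19 was higher by 5.52 (SE 0.49, adjusted p = 1.67e-05), and unlike Cd300lg it was highest with vehicle, at 187 CPM against 1.27. Emp1, a membrane protein first named for epithelia, rose by 3.52 (SE 0.28, adjusted p = 8.01e-06), with 327 CPM in KO at P6, 525 in KO at P10, 299 with vehicle and 415 with rapamycin against 31.7, 43.7, 54.0 and 16.5 CPM. Plpp3, a phosphatase that breaks down lysophosphatidic acid, rose by 3.48 (SE 0.34, adjusted p = 2.95e-05), from 37.7, 56.3, 47.3 and 30.9 CPM to 282 CPM in KO at P6, 755 in KO at P10, 217 with vehicle and 923 with rapamycin. Gpihbp1, which carries lipoprotein lipase across capillary endothelium, measured 246 CPM in KO at P6, 743 in KO at P10, 17.3 with vehicle and 268 with rapamycin against 18.5, 7.27, 14.2 and 17.0 CPM, so that the vehicle cells stood at the level of their Plvap-zero neighbours while the other libraries were far above it. Its log2 difference was 4.14 (SE 0.60, adjusted p = 0.000606), and it did not pass among cells with only 2 to 5 Plvap UMIs (adjusted p = 0.431).

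Beyond these, the rule named the endothelin receptor Ednrb at 4.30, the platelet-adhesion selectin Selp at 5.32, the calcification inhibitor Mgp at 3.78, the microfibril protein Mfap2 at 3.10 and Fam167b at 4.30 on the log2 scale. Selp was uneven over libraries, with 5.58 CPM in KO at P6, 14.6 in KO at P10, 69.4 with vehicle and 137 with rapamycin, and the cells that carried it were few: 2 of 29 in KO at P6, 1 of 74 in KO at P10, 5 of 22 with vehicle and 7 of 70 with rapamycin. A further 3 interferon-inducible genes, the immunity-related GTPase Iigp1 (4.95) and the nuclear sensors Mndal (3.13) and Ifi203 (3.06), were also among the 15. The annotated spans of Mndal (chr1:173849126-173942491) and Ifi203 (chr1:173920407-173942672) overlap on the minus strand, so the split of UMIs between them is uncertain. In cells with only 2 to 5 Plvap UMIs, Mfap2, Mndal and Ifi203 did not pass, with adjusted p of 0.134, 0.471 and 0.188.

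**Figure D2:**
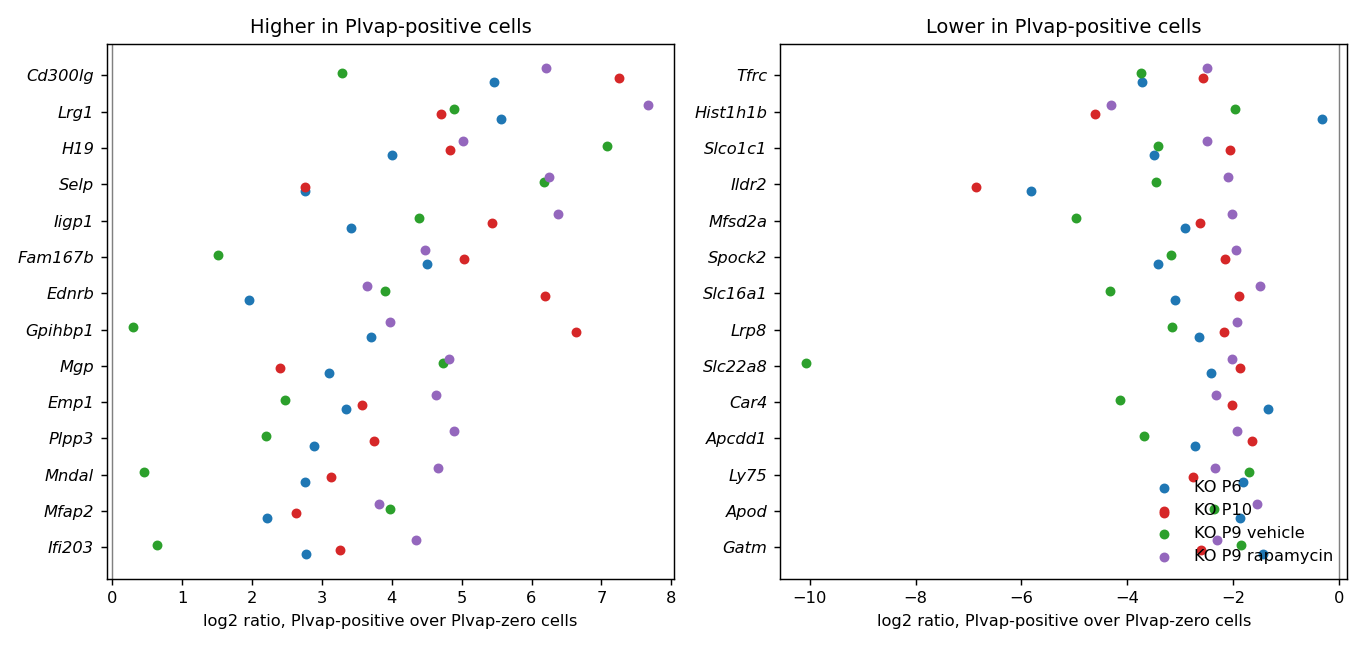
Log2 ratio of Plvap-positive to Plvap-zero cells for 14 of the 15 higher (left) and the 15 lower (right) genes named by rule, 1 point per KO library, with a prior count of 2. All points lie on 1 side of 0 because the naming rule required it. The vehicle library has the smallest rise for Cd300lg, Gpihbp1, Fam167b, Mndal, Ifi203, Emp1 and Plpp3.

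Most tested genes of fenestrated-bed endothelium rose. Of the 20 genes of this list, 17 were tested, 15 rose and 0 fell, with a median log2 difference of 2.34 beside -0.06 over all genes tested. The list was chosen with earlier results of these data known, so this count is a description and no independent support. The list was uneven over libraries, with 11 of the tested genes higher in every one of the 4 and a median log2 ratio of 1.78 in KO at P6, 2.97 in KO at P10, 0.29 with vehicle and 3.30 with rapamycin. Emcn, a sialomucin of venous and capillary endothelium, measured 852 CPM in KO at P6, 1285 in KO at P10, 525 with vehicle and 999 with rapamycin against 314, 353, 280.4 and 296 CPM and rose by 1.47 (SE 0.17, adjusted p = 8.13e-05). Plpp1, another phosphatase of lysophospholipids, measured 313 CPM in KO at P6, 726 in KO at P10, 108 with vehicle and 459.9 with rapamycin against 90.6, 99.1, 53.5 and 46.5 CPM and rose by 2.34 (SE 0.29, adjusted p = 0.000214). Ramp3, a partner of the adrenomedullin receptor, rose by 2.60 (SE 0.25, adjusted p = 2.26e-05), and the exocyst-like gene Exoc3l2 by 6.02 (SE 0.65, adjusted p = 5.63e-05). Igfbp3, a secreted binder of insulin-like growth factors, was present at 698 CPM in KO at P6, 3476 in KO at P10, 26.0 with vehicle and 319.9 with rapamycin against 152, 81.9, 30.4 and 34.1 CPM. It rose by 3.02 (SE 0.55, adjusted p = 0.00319), but it was no higher than in Plvap-zero cells with vehicle. The same held for Cd24a, a surface glycoprotein (271 CPM in KO at P6, 799 in KO at P10, 21.7 with vehicle and 257 with rapamycin against 108, 142, 48.9 and 22.2 CPM), and for the basement membrane collagen Col15a1 (69.8 CPM in KO at P6, 75.3 in KO at P10, 4.34 with vehicle and 134 with rapamycin against 4.63, 4.28, 20.7 and 12.9 CPM), whose log2 differences were 1.98 and 3.04. Esm1, a proteoglycan of endothelium exposed to VEGF, had 114 CPM in KO at P6, 566 in KO at P10, 0 with vehicle and 361 with rapamycin against 10.6, 48.9, 4.08 and 5.68 CPM and rose by 3.98 (SE 0.51, adjusted p = 0.000261). Aqp1, a water channel, was not tested after the filter on low counts, and it measured 8.38 CPM in KO at P6, 578 in KO at P10, 0 with vehicle and 30.2 with rapamycin in Plvap-positive cells.

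Genes of the diaphragm, of caveolae and of lipid uptake changed in part. Of 11 tested genes of fenestral diaphragm and caveolae, 5 rose and 0 fell: Cavin2 (1.07), Ehd2 (0.81), Ehd4 (1.29), Emp2 (1.40) and the fatty acid binding protein Fabp4 (2.96). Cav1, the main coat protein of caveolae, measured 355 CPM in KO at P6, 340.1 in KO at P10, 464 with vehicle and 183 with rapamycin against 386, 355, 329 and 200.1 CPM and did not pass (log2 difference 0.01 (SE 0.14, adjusted p = 0.992)). Of 13 tested genes of lipid handling, Gpihbp1, Fabp4, Scarb1 and Apoe rose and Angptl4 fell. Scarb1, the receptor of high density lipoprotein, rose by 1.02 (SE 0.22, adjusted p = 0.00991). Apoe measured 221 CPM in KO at P6, 789 in KO at P10, 1431 with vehicle and 948 with rapamycin against 123, 291, 214 and 327 CPM and rose by 1.63 (SE 0.22, adjusted p = 0.000349).

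Vascular identity genes did not follow a single direction. Of 11 tested capillary genes, 8 fell and 2 rose, with a median of -1.70. Of 15 tested vein and venule genes, 5 rose, Ackr1, Selp, Sele and Vcam1 among them, and 0 fell, with a median of 0.53, and of 14 tested artery genes Efnb2, Mgp, Stmn2, Eln and Clu rose and Hey1 fell. The adhesion molecule Vcam1 measured 41.9 CPM in KO at P6, 131 in KO at P10, 286 with vehicle and 70.0 with rapamycin against 32.3, 53.0, 61.7 and 13.8 CPM and rose by 1.64 (SE 0.26, adjusted p = 0.00127). The endothelial selectin Sele had 0 CPM in KO at P6, 4.86 in KO at P10, 117 with vehicle and 89.4 with rapamycin, with a rise of 2.79 (SE 0.42, adjusted p = 0.000898), and its P6 and P10 sums lay far below those of P9. Vwf, the clotting factor stored in venous endothelium, had 44.7 CPM in KO at P6, 82.6 in KO at P10, 729 with vehicle and 279 with rapamycin against 79.1, 74.3, 119.6 and 185 CPM and did not pass (log2 difference 0.77 (SE 0.36, adjusted p = 0.241)). Of 15 tested tip cell genes, Esm1 and Col4a1 rose while Apln, Angpt2 and Adm fell. Apln, a peptide ligand of sprouting endothelium, was lower in all 4 libraries, at 369 CPM in KO at P6, 493 in KO at P10, 108 with vehicle and 106 with rapamycin against 911, 1010.1, 355 and 550.2 CPM, and fell by 1.61 (SE 0.19, adjusted p = 0.000124). Esm1 and Apln, which both serve as tip cell markers, thus went in opposite directions in the fit over libraries. With vehicle Esm1 was not higher, captured in 0 of 22 Plvap-positive cells and 1.20% of Plvap-zero cells.

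Of 23 tested interferon-stimulated genes, 9 rose and 0 fell, with a median of 0.61. B2m, which encodes beta-2 microglobulin, measured 4554 CPM in KO at P6, 2016 in KO at P10, 724 with vehicle and 429.8 with rapamycin against 2759, 1417, 459 and 248 CPM and rose by 0.64 (SE 0.11, adjusted p = 0.00242). Isg15, a ubiquitin-like protein, measured 508 CPM in KO at P6, 301 in KO at P10, 195 with vehicle and 162 with rapamycin against 392, 105, 91.0 and 41.1 CPM and rose by 1.21 (SE 0.22, adjusted p = 0.00312). Ifitm3, Bst2, H2-K1, Ifit1, Rtp4, Ifi27l2a and Iigp1 were the others. Of 18 tested genes of VEGF and angiopoietin signalling, Nrp1, Nrp2, Vegfa, Calcrl, Ramp3 and Rcan1 rose and Angpt2 and Apln fell, and Kdr, the main VEGF receptor, did not pass (0.06 (SE 0.16, adjusted p = 0.888)). Nrp2, a coreceptor, rose by 1.35 (SE 0.16, adjusted p = 0.000147). Smad6, Id2 and Ltbp4 of the BMP and TGF-beta list rose, out of 14 tested. Of 16 tested genes linked to cerebral cavernous malformation, the anticoagulant receptor Thbd and the proteases Adamts1 and Adamts4 rose and Stk25 fell, whereas the transcription factors Klf2 (-0.27 (SE 0.17, adjusted p = 0.429)) and Klf4 (0.41 (SE 0.21, adjusted p = 0.289)) did not pass.

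Most genes of barrier transport fell. Of 25 genes of blood-brain barrier transport, all tested, 17 fell and 0 rose, with a median of -1.28, and 19 were lower in every one of the 4 libraries. Tfrc, the transferrin receptor, measured 14.0 CPM in KO at P6, 55.9 in KO at P10, 26.0 with vehicle and 82.9 with rapamycin against 189, 330.3, 349.6 and 469 CPM, a log2 difference of -2.91 (SE 0.22, adjusted p = 7.75e-06). Slco1c1, which carries thyroid hormone, measured 64.2 CPM in KO at P6, 163 in KO at P10, 30.4 with vehicle and 178 with rapamycin against 730.1, 674, 324 and 997 CPM, a difference of -2.73 (SE 0.22, adjusted p = 8.01e-06). Mfsd2a, the lipid transporter at whose locus the Cre sits, measured 64.2 CPM in KO at P6, 41.3 in KO at P10, 4.34 with vehicle and 76.5 with rapamycin against 484, 256, 139 and 310.3 CPM (-2.63 (SE 0.24, adjusted p = 1.74e-05)). No library had a Plvap-positive sum near that of its Plvap-zero cells for these genes. Slc16a1, the monocarboxylate transporter, and Slc22a8, an organic anion transporter, differed by -2.34 and -2.29. The glucose transporter Slc2a1 differed less, by -0.85 (SE 0.15, adjusted p = 0.00242), with 645 CPM in KO at P6, 464 in KO at P10, 564 with vehicle and 443 with rapamycin against 989.8, 1061, 685 and 975 CPM, and its call was lost in cells with 2 to 5 Plvap UMIs (-0.18, adjusted p = 0.755). The efflux pumps Abcb1a and Abcg2 did not pass, at -0.40 (SE 0.20, adjusted p = 0.267) and -0.06 (SE 0.13, adjusted p = 0.854).

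Part of the Wnt and barrier signalling genes fell. Of 21 tested, 11 fell, 10 did not pass and 0 rose, with a median of -0.77. Those that fell included Lef1, Tcf7, Axin2, Apcdd1, Nkd1, Notum, Fzd6, Foxq1, Foxf2 and Ppard. Lef1, a transcription factor of the pathway, measured 27.9 CPM in KO at P6, 34.0 in KO at P10, 91.1 with vehicle and 47.4 with rapamycin against 72.9, 76.7, 114 and 138 CPM and fell by 1.15 (SE 0.21, adjusted p = 0.0034), a call lost without the rapamycin library (-0.96, adjusted p = 0.0741). Apcdd1, a membrane inhibitor induced by Wnt, differed by -2.25 (SE 0.23, adjusted p = 4.62e-05), and Foxq1, a barrier transcription factor, by -1.31 (SE 0.16, adjusted p = 0.00021). Of 10 tested junction genes, the tight junction genes Ocln (-1.23) and Lsr (-0.96) fell and Jam3 rose (2.20). Claudin-5 and Cdh5 are gate genes and were not tested. The other genes named as lower were Hist1h1b, Ildr2, Spock2, Lrp8, Car4, Ly75, Apod and Gatm, with log2 differences from -2.83 to -2.04. Hist1h1b, a histone of dividing cells, rested on the P9 libraries, and without them its difference was -1.16 (adjusted p = 0.797).

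Promoters are shown for 2 higher genes and 2 lower genes, since these moved together in the 4 libraries and TCF/LEF and ETS factors are the textbook regulators of barrier and endothelial genes. Each is the 250 bases before the RefSeq transcription start in GRCm38.p6, 5′ to 3′ on the gene's strand, and capitals mark the letters CTTTGA (TCF/LEF) or AGGAAG (ETS) in either orientation, which do not overlap in these windows.
Lrg1, minus strand, chr17:56121947-56122196: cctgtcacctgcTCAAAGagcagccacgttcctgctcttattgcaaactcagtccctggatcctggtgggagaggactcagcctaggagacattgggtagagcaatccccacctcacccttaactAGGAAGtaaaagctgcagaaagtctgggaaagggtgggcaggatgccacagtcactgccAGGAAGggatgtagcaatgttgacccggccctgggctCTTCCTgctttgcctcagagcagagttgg
Plpp3, plus strand, chr4:105157097-105157346: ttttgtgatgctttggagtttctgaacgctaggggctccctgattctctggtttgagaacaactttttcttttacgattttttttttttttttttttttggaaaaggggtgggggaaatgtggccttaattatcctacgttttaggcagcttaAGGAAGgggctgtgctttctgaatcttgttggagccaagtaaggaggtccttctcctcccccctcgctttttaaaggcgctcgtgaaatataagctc
Mfsd2a, minus strand, chr4:122961189-122961438: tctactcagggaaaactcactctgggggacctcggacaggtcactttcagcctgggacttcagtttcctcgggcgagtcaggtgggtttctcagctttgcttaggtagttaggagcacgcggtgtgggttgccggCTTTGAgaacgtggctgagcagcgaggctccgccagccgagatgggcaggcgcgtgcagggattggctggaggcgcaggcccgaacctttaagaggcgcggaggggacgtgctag
Slco1c1, plus strand, chr6:141524104-141524353: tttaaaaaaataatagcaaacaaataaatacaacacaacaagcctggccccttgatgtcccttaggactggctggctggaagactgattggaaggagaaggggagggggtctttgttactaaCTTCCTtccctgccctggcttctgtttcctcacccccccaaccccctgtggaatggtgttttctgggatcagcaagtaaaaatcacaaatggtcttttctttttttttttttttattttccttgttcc
Lrg1 held 1 TCF/LEF match and 3 ETS matches, Mfsd2a held 1 TCF/LEF match, and Plpp3 and Slco1c1 each held 1 ETS match. A TCF/LEF match thus stood in 1 of the higher and 1 of the lower genes shown. Over all 32851 RefSeq promoters, 13.8% held the TCF/LEF letters and 29.5% the ETS letters. RefSeq promoters were found for 9 of the 15 higher genes (13 promoters, 4 with TCF/LEF and 7 with ETS letters) and 12 of the 15 lower genes (15 promoters, 2 and 2). A match is a run of letters and not a shown binding site.

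Plvap-positive cells were not uniform, and the amount of Plvap separated them along the fenestrated and barrier genes. The bands that follow were made from the gene that chose the cells and are given as description. In KO at P6, the summed level of the 20 fenestrated-bed genes was 9729.9 CPM in cells with 6 or more Plvap UMIs, 2159 in cells with 2 to 5 and 1409 in Plvap-zero cells. In KO at P10 it was 15712, 3188 and 1524 CPM, and with rapamycin 7216, 1901 and 1267 CPM. The barrier transporters ran the other way, at 1339, 4565 and 8830 CPM in KO at P6, 1423, 6251 and 8160 in KO at P10, and 2467, 6864 and 8586 with rapamycin. Summed over 2 to 5 Plvap UMIs, the cells thus lay between the other bands in these 3 libraries, but they were not of 1 kind. With rapamycin the barrier transporters measured 9081 CPM in cells with exactly 2 Plvap UMIs, above the Plvap-zero cells, and 3083 CPM in cells with 3 to 5. In KO at P10 the fenestrated-bed genes measured 2398 CPM at 2 Plvap UMIs and 7213 CPM at 3 to 5.

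**Figure D3:**
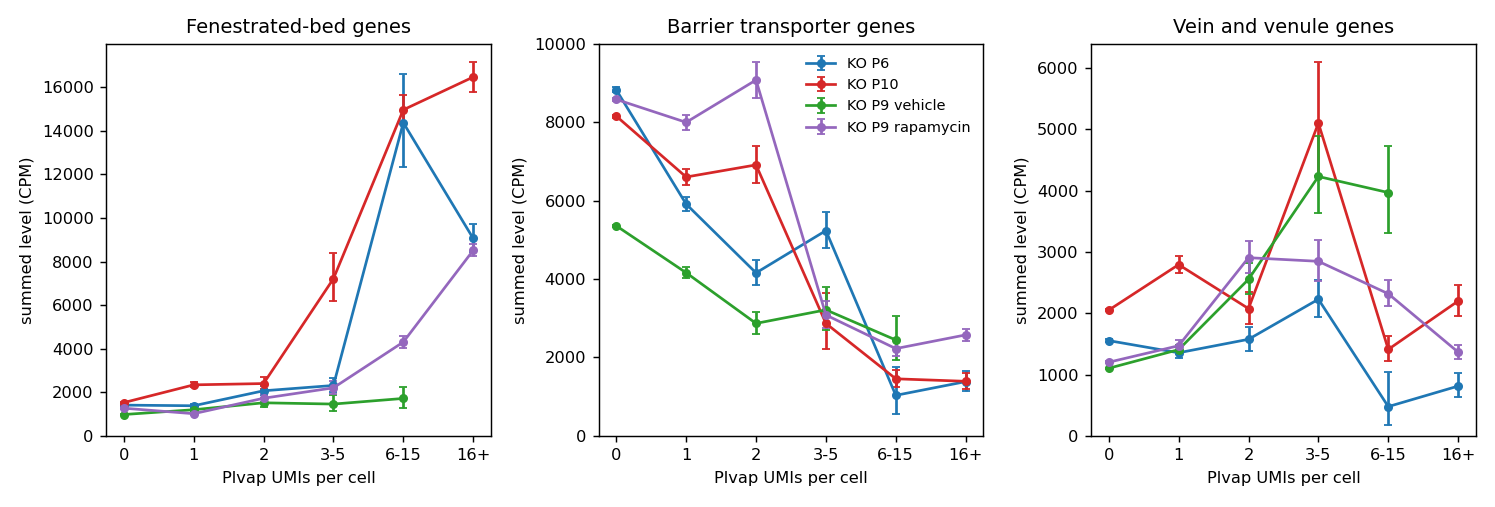
Summed level in CPM of 3 gene lists by the Plvap UMIs of the cell, 1 line per KO library, with exact 95% Poisson intervals. In KO at P6, KO at P10 and rapamycin the fenestrated-bed genes are higher and the barrier transporters lower at 6 or more Plvap UMIs than in Plvap-zero cells, with uneven steps between, whereas with vehicle the fenestrated genes stay below 2000 CPM.

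Single genes showed the step more sharply. Cd300lg was captured in 9 of 14 cells with 6 or more Plvap UMIs and 0 of 15 with 2 to 5 in KO at P6, in 44 of 56 and 3 of 18 in KO at P10, and in 30 of 50 and 2 of 20 with rapamycin. In Plvap-zero cells it was captured in 1.02% to 1.21% of cells of these libraries, and in 0 non-endothelial barcodes. Col13a1, a transmembrane collagen, was captured in 8 of 14, 31 of 56 and 44 of 50 of the cells with 6 or more Plvap UMIs, in 0 of 15, 0 of 18 and 2 of 20 of those with 2 to 5, and in 0 of 783, 2 of 2875 and 0 of 1485 Plvap-zero cells. It was also the gene whose UMIs followed Plvap most closely over endothelial cells (mean Spearman rho 0.265 over the 6 libraries, from -0.00371 with vehicle to 0.643 with rapamycin), ahead of Emp1 (0.192), Cd300lg (0.191), Lrg1 (0.177) and Eln (0.171). These correlations are over cells of shared libraries and sparse counts and are a description. Mfsd2a was captured in 0 of 14, 2 of 56 and 3 of 50 cells with 6 or more Plvap UMIs, in 8 of 15, 6 of 18 and 6 of 20 with 2 to 5, and in 79.3%, 62.7% and 77.7% of Plvap-zero cells. Since cells with 6 or more Plvap UMIs had fewer total UMIs in these libraries, the fenestrated genes were captured more often at lower depth. The lower capture of Mfsd2a lay in the direction of lower depth, and capture at matched depth was not measured.

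The vehicle library went in part against the label of fenestrated cells. Its 22 Plvap-positive cells had 0 UMIs of Esm1, Aqp1 and Col13a1, 1 cell with Cd300lg and 3 with Gpihbp1, and their fenestrated-bed sum was 1531 CPM against 977 in Plvap-zero cells. The sum was 1715 CPM in the 3 cells with 6 or more Plvap UMIs. Their vein and venule sum was 3062 CPM against 1102, with Vwf captured in 17 of 22 cells against 37.8% of Plvap-zero cells. Among cells with 6 or more Plvap UMIs, Vwf was captured in 3 of 3 with vehicle, 0 of 14 in KO at P6, 5 of 56 in KO at P10 and 8 of 50 with rapamycin. Other fenestrated-bed genes were present in the vehicle cells, with 3 of the 20 at 0 UMIs and Plpp3 captured in 15 of 22 cells against 29.5% of Plvap-zero cells. The vehicle cells thus carried part of the fenestrated list beside genes of the vein list, and are called Plvap-positive and not fenestrated here. Their barrier transporters were low as in the other libraries, with Mfsd2a captured in 1 of 22 cells and a transporter sum of 2876 CPM against 5360. In KO at P6, Vwf was captured in 46.7% of cells with 2 to 5 Plvap UMIs (7 of 15) against 40.1% of Plvap-zero cells. The shares were 44.4% (8 of 18) against 31.1% in KO at P10 and 60.0% (12 of 20) against 60.4% with rapamycin. The vein and venule sum of these cells was 1821 CPM against 1553 in KO at P6 and 2572 against 2051 in KO at P10. With rapamycin it was 2885 against 1201 CPM, so a higher vein sum was not particular to vehicle. These differences between libraries were not tested, since each group was 1 library.

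**Figure D4:**
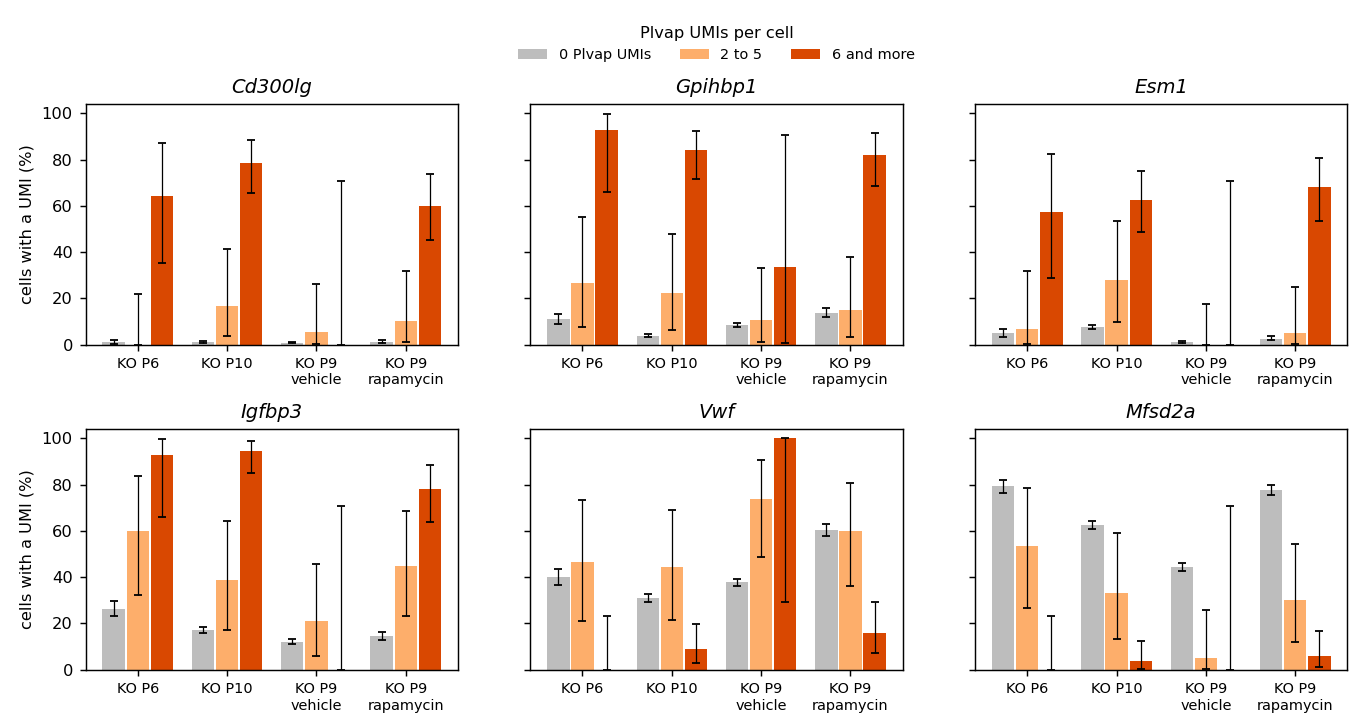
Percent of cells with a UMI of 6 genes, for Plvap-zero cells and for Plvap-positive cells with 2 to 5 or with 6 and more Plvap UMIs, in each KO library, with exact 95% intervals. Cd300lg, Gpihbp1, Esm1 and Igfbp3 are common in cells with 6 or more Plvap UMIs except with vehicle (3 cells), where Vwf was captured in all 3.

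The cells with 6 or more Plvap UMIs also differed between the 3 other KO libraries. Aqp1 measured 872 CPM in the cells with 6 or more Plvap UMIs of KO at P10, where 29 of 56 carried it, against 30.0 CPM in KO at P6 (2 of 14) and 33.1 CPM with rapamycin (13 of 50). Igfbp3 measured 4827 CPM in KO at P10, 1339 in KO at P6 and 394 with rapamycin. Mgp had another order, at 532, 809 and 1212 CPM, and so had Lrg1, at 74.9, 89.9 and 143 CPM. Lrg1 was captured in 3 of 56 such cells in KO at P10 but in 5 of 14 in KO at P6 and 18 of 50 with rapamycin. The barcodes of the P9 libraries come from a list other than that of the P6 and P10 libraries, so age, treatment and library preparation cannot be told apart in these values.

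Part of the S phase genes fell in Plvap-positive cells. Of 16 tested S phase genes, 6 fell (Mcm5, Mcm7, Dut, Rrm2, Tyms and Uhrf1) and 0 rose, and of 12 tested mitotic genes 0 passed in either direction. After thinning to 2000 UMIs, with cells of fewer UMIs left out, a cell was counted as mitotic with UMIs of at least 3 of 12 mitotic genes. This held for 3 of 25 Plvap-positive cells in KO at P6, 0 of 65 in KO at P10 (exact upper limit 5.52%), 1 of 22 with vehicle and 0 of 69 with rapamycin (exact upper limit 5.21%). The Plvap-zero cells had 6.19%, 6.76%, 15.7% and 4.99%. The lower bound of the Plvap-zero cells was 5.84% in KO at P10 and 3.92% with rapamycin. These intervals cover counting error over the cells of 1 library, and no share was tested.

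The WT libraries held too few Plvap-positive cells for a test. The 6 cells of P6 had 2, 2, 2, 2, 3 and 13 Plvap UMIs, and the 4 of P10 had 2, 2, 2 and 7. The WT cell with 13 UMIs carried Cd300lg, Gpihbp1 and Col13a1, each captured in 0 of the other 5 cells of P6, and it had no Mfsd2a or Slco1c1. Of those other 5 cells, 4 had Mfsd2a and all 5 had Vwf. The WT P10 sum was led by Mgp (8918 CPM) and Eln, the elastin gene (15274 CPM), which are matrix genes of arteries, and Selp and Vwf were captured in the cell with 7 Plvap UMIs. Thus 1 of the 10 WT cells had Cd300lg, Gpihbp1 and Col13a1 together.

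Between WT and KO, the summed Plvap-positive cells are given as values with no test, since the WT sums held 39752 UMIs at P6 and 21867 at P10. Of these, 20465 UMIs at P6 and 8533 at P10 came from 1 cell each, so the WT values lean on single cells. The makeup of the sums differed too, with 6 or more Plvap UMIs in 1 of 6 WT and 14 of 29 KO cells at P6 and in 1 of 4 WT and 56 of 74 KO cells at P10. Genes were ranked by the smaller of the P6 and P10 ratios where these had the same sign. Higher in KO were Irgm1, an interferon-inducible GTPase (56 UMIs against 0 at P6 and 71 against 0 at P10), Esm1 (41 and 233 UMIs against 0), Plscr2, a phospholipid scramblase (38 and 63 against 0), Igfbp3 and Cd24a. With 3 UMIs as the floor of the WT sum, Esm1 was 1.52-fold higher at P6 and 4.13-fold higher at P10. Its lower bounds from counting error were 1.18 and 3.33. At P10 the lower bound of the KO to WT ratio from counting error was 0.996 for Irgm1 and 0.881 for Plscr2, so these intervals include no change. Igfbp3 measured 698 CPM against 75.5 at P6 and 3476 against 137 at P10. Lower in KO were the selenium carrier Selenop (531 CPM against 3522 at P6 and 704 against 2012 at P10), Apoe (221 against 906 and 789 against 2378), the ferritin Fth1, Csrp2 and Itm2a. Selenop and Fth1 were also lower in KO among Plvap-zero cells, at 1100.2 against 3955 CPM and 1001 against 3375 CPM for Selenop, so that both classes showed this direction.

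With rapamycin, Plvap-positive cells were set beside those with vehicle, again without a test. Of 1936 genes with enough UMIs, 64 were at least 4-fold higher with rapamycin (3.31%) and 28 at least 4-fold lower (1.45%). Esm1 had 335 UMIs with rapamycin and 0 with vehicle. Set against a floor of 3 UMIs this is 27.7-fold higher, and the lower bound of the ratio from counting error was 22.4. The gap junction gene Gja4 (217 UMIs against 0), the metallothionein Mt1 (164 against 0) and Plscr2 (146 against 0) were 18.0-fold, 13.6-fold and 12.1-fold above this floor. Their lower bounds from counting error were 14.5, 10.9 and 9.71. Ecrg4 had 390 UMIs against 0, of which 1 remained without the 3 rapamycin cells richest in Ttr. Lower with rapamycin were Ltc4s, the leukotriene C4 synthase (5.39 CPM against 494), the neuropeptide Nts (0 UMIs against 33), the chemokine Ccl2 (1.08 CPM against 126), Hist1h2ae (2.15 against 117) and the disulfide isomerase Pdia5 (10.8 against 169). The makeup of the 2 groups differed, with 71.4% and 13.6% of cells at 6 or more Plvap UMIs. Among cells with 2 to 5 UMIs, 35 genes were at least 4-fold higher and 30 at least 4-fold lower.

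Transcripts of other cell types were counted beside these results. Ttr, the thyroxine carrier made by the choroid plexus epithelium, had 26813 UMIs in rapamycin Plvap-positive cells, and 3 cells held 26778 of them (99.9%). These 3 cells had 4624, 7022 and 15132 Ttr UMIs, 20, 3 and 7 Plvap UMIs, and 13 to 15 of 16 choroid plexus genes, with 25384, 21735 and 41008 UMIs in all. The other 19 rapamycin cells with Ttr had at most 10 UMIs each, and Ttr was captured in 14.9% of rapamycin Plvap-zero cells. In KO at P6, 2 cells held 246 of 255 Ttr UMIs. In KO at P10, 3 of 74 cells had Ttr, at 7.29 CPM, and with vehicle 0 of 22, so Plvap-positive cells with the fenestrated genes were present in KO at P10 with Ttr near 0. Without the cells rich in Ttr, 476 genes were higher and 355 lower in the comparison of classes, beside 502 and 355 with them.

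Of the 6 choroid plexus genes tested of 19, Ttr and Calml4 were higher. The choroid plexus sum in Plvap-positive cells was 846 CPM in KO at P6, 687 in KO at P10 (578 of it Aqp1), 147 with vehicle and 29962 with rapamycin, against 101, 92.3, 82.2 and 734 CPM in Plvap-zero cells. Of 5 tested fibroblast genes, Col1a2, Col3a1, Dcn and Igf2 were higher, with fibroblast sums of 189.9, 85.0, 78.1 and 431 CPM against 32.0, 31.1, 24.5 and 36.3 CPM. Of 10 pericyte genes, Vtn, Higd1b and Atp13a5 were lower and Notch3 higher, and the pericyte sums were 944, 462, 56.4 and 1049 CPM against 1153, 579, 278 and 453 CPM. Of 6 tested red cell genes, 4 haemoglobin genes were lower. The part of these transcripts in the gene differences above was not tested beyond the counts without Ttr-rich cells and 1 further setting. Without cells that carried at least 3 of 16 choroid plexus genes, 441 genes were higher and 320 lower. This setting left out 5 Plvap-positive cells, the 3 Ttr-rich cells of rapamycin among them, so it overlaps with the setting without Ttr-rich cells. Of the 205 Plvap-positive cells, 5 were among the highest doublet scores, and without all such barcodes 469 genes were higher and 373 lower. The 5 Ttr-rich Plvap-positive cells were not among the highest scores, so this setting kept them. Whether they are doublets was not tested.

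The vehicle and rapamycin libraries shared 420 barcodes, 18.3% of those of rapamycin and 6.95% of those of vehicle. Every other pair of libraries shared 0 to 13. Of the 420, 416 had more UMIs in vehicle, with medians of 835 in vehicle and 611.5 in rapamycin. The cause was not tested. Of the 420, 138 were kept in both libraries and 3 were endothelial in both. In all libraries, 0 Plvap-positive cells lay on a shared barcode. Without shared barcodes 498 genes were higher and 346 lower.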

How the data were processed

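Sorted cells of 6 libraries, 1 per group, were captured with a 10x Genomics 3' chemistry, per the labels' protocols. The authors deposited whole-number UMI counts per gene and barcode for 32285 genes, made with Cell Ranger 6.0.1 on mm10, per the submitters' processing notes, and not normalized. The files hold 18568 barcodes, with 10807651 to 40197132 UMIs per library. The members and gene lists were chosen with earlier results of these data known.

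Barcodes were filtered as the report states. UMIs were summed per library over cells with at least 2 Plvap UMIs and over cells with none. CPM is the sum per 1000000 UMIs, log2 ratios use a prior count of 2, and intervals at 95% are exact (Poisson for CPM, Clopper-Pearson for shares) and cover counting error only. With edgeR 4.0.16 in R 4.3.3, the 8 sums of 4 libraries were fitted with library and class as terms (TMM scaling, filterByExpr, quasi-likelihood test, Benjamini-Hochberg adjustment at 0.05), with 3 residual degrees of freedom and a common dispersion of 0.0337. The procedure was tested on simulated data. Whether the libraries stem from different animals is not given in the labels, and the p-values rest on the spread over these libraries alone. The planned tests of genotype within Plvap-positive cells were not run, since the WT libraries held 6 and 4 of them, under the minimum of 20.

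Doublet scores came from Scrublet in scanpy 1.11.5. Its own threshold marked almost no barcodes and was not used, and the highest scores were left out at 0.8% per 1000 barcodes as an alternative. Coordinates are from GENCODE vM21, which matched 32158 identifiers, and identifiers separated 78 genes with shared symbols.

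Named genes were the 15 higher and 15 lower by log2 difference among those passing, with the same sign in all 4 libraries and at least 50 CPM in the higher class. For the pairs they were the 5 each way by ratio, given 100 CPM or more and 20 UMIs or more in whichever library was higher. Plvap, gate genes, mitochondrial, ribosomal, haemoglobin, sex-linked, unnamed and other-cell-type genes were left out of the ranking, and genes of the 24 lists could be named too. Col13a1 was named by its likeness to Plvap. Alternatives were DESeq2, no filter, no library block, other Plvap thresholds, matched depth, and leaving out each library, doublet scores, choroid plexus cells or shared barcodes. Those with 2 to 5 Plvap UMIs and without Ttr-rich cells were chosen after seeing the data. Single results of 2 genes are not reported here.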

Additional observations from a re-analysis of the deposited data

Results flagged for a closer look

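The mitotic genes Birc5 and Ube2c moved in opposite directions in 2 KO libraries. The log2 ratio of Plvap-positive to Plvap-zero cells was 1.14 in KO at P6 and -1.87 with vehicle for Birc5, and 1.31 and -2.36 for Ube2c. The difference was not tested, since each is 1 library, and 3 of 25 Plvap-positive cells of KO at P6 were mitotic. Among barcodes left out by the quality filter, 5 had at least 2 Plvap UMIs, 3 in KO at P10, 1 in KO at P6 and 1 with rapamycin, and 0 in WT.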

How the results depend on the processing

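The count of genes higher in Plvap-positive cells (502) was within 1.5 times with DESeq2, no filter, matched depth, cells of 6 or more Plvap UMIs, and without doublet scores, choroid plexus cells, Ttr-rich cells or shared barcodes. It was 58 with no library block, 115 in cells with 2 to 5 Plvap UMIs, 164 without the P9 libraries, and 193 to 733 leaving out each library in turn. The count of lower genes (355) was 967 with no filter, 8 with no library block, 798 in cells with 6 or more Plvap UMIs, 103 in cells with 2 to 5, 105 without the P9 libraries, and 137 to 599 leaving out each library. The share of Plvap-positive cells at 1 UMI or more was 2.97%, 8.63%, 0.847%, 4.71%, 2.52% and 7.36% for P6 (WT, KO), P10 (WT, KO) and P9 (vehicle, rapamycin). At 6 or more it was 0.0725%, 1.63%, 0.0282%, 1.86%, 0.0796% and 3.12%, and after thinning 1.45% (KO P6), 1.69% (KO P10), 0.0570% (vehicle) and 2.69% (rapamycin). Between rapamycin and vehicle, 164 genes were at least 4-fold higher and 8 lower in cells with 6 or more Plvap UMIs, of which vehicle had 3, and 35 were higher in cells with 2 to 5. The cause of these changes was not tested, beyond the fewer cells or sums that the settings hold. Of 38 gene results followed, in which Mfsd2a was counted 2 times, 17 kept their outcome with no library block and 21 became weaker. In cells with 2 to 5 Plvap UMIs 7 became weaker, and none changed sign past the threshold. Weaker means a call lost, or a changed sign with neither fit passing. Some of these genes, such as Vwf and Kdr, had no call in the main fit. No paired analysis was possible between genotypes or treatments because the labels give no replicate numbers, whereas the test of the 2 classes was itself paired within each library. The WT sums rest on 6 and 4 cells with 39752 and 21867 UMIs.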
